A study of Bos taurus with 34 samples.

Results

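The transcript abundance of genes in peripheral white blood cells (PWBC) was compared between heifers that became pregnant to artificial insemination (AI-preg) and heifers that became pregnant later to bulls by natural breeding (NB-preg). The members are the 6 AI-preg libraries (heifers 92, 99, 114, 117, 119 and 120) and the 6 NB-preg libraries (heifers 93, 103, 108, 111, 116 and 121), that is 12 of the 34 libraries of the series and 12 of its 17 PWBC libraries. The other 5 PWBC libraries, of heifers without a pregnancy by the end of the season (non-pregnant), enter here only in the joint estimate of the spread and as values for reference. All were crossbred Angus-Simmental heifers of a little over 1 year, whose estrus had been synchronized for AI at a fixed time with semen of 1 sire, and blood was drawn at AI. Both pregnant groups thus carried the same treatment, were sampled before any pregnancy was established and conceived in the same season at different matings. The question is whether the white cells of heifers later found pregnant to AI differed at that moment from those of heifers later found pregnant to a bull.

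White blood cells are a mixture of neutrophils, lymphocytes, monocytes and rarer granulocytes. Their mRNA reports both which cells circulate and how those cells are activated, and platelets and their RNA can come down with the white cell layer of centrifuged blood. Interferons switch on a common set of antiviral genes in most of these cells, and in cattle the early embryo itself secretes an interferon, although only well after the day on which these samples were drawn. In a bulk library of this kind, fewer cells of a type and less RNA per cell cannot be told apart.

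Each heifer gave 1 library. The total counts were between 15353819 and 67192941 in AI-preg libraries and between 6402207 and 56867279 in NB-preg libraries, with medians of 32535945 and 19195350. The geometric mean depth was 1.67-fold higher in AI-preg, a difference within the spread between heifers (two-sided exact permutation test, p = 0.238, n = 6 and 6). Levels below are CPM, a gene's counts scaled to the library total. Of 27570 genes, 10942 reached 2 CPM in 5 or more of the 17 libraries and were tested, of which 2214 have a symbol in the sources used here. The rest are known only by identifier.

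No gene differed between AI-preg and NB-preg heifers at an adjusted p below 0.05 (edgeR quasi-likelihood test, Benjamini-Hochberg adjustment over 10942 genes), so 0% were called. At an unadjusted p below 0.05 there were 16 genes, or 0.146% of those tested, with 2 more abundant in AI-preg and 14 less abundant. The direction of this split depended on the test, since limma-voom gave 19 genes, 13 more abundant in AI-preg and 6 less abundant, of which 5 were among the 16. Without heifer 114 there were 132 genes, 6 more abundant and 126 less abundant, of which 13 were among the 16. The count was 26 without heifer 92, 44 without heifer 93, 38 without heifer 111 and 7 without heifer 120. With the first principal component as a covariate there were 128, 20 more abundant and 108 less abundant. DESeq2 called 0 genes after adjustment as well, with 71 genes or 0.649% at an unadjusted p below 0.05, and its smallest adjusted p was 0.332. No gene had all 6 libraries of one group above all 6 of the other. In the same fit, 585 genes (5.35%) had an unadjusted p below 0.05 for AI-preg against non-pregnant and 672 (6.14%) for NB-preg against non-pregnant, with 0 after adjustment in either. Where no gene differs, a share of about 0.05 of genes is expected there on average, and genes that vary together can move it. Both shares against non-pregnant heifers lay near that value, and the share for AI-preg against NB-preg lay far below it. The reason for the low share was not tested. The median log2 fold change over all genes was 0.09, and the quartiles were -0.17 and 0.34.

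The SD of log2(CPM + 1) within a group had a median over genes of 0.79 in AI-preg and 0.88 in NB-preg. The 95% interval of the log2 fold change reached, in the median gene, 1.29 to either side of the estimate, which is a 2.44-fold difference. For 1651 genes (15.1%) the interval lay within 2-fold in both directions, and for 7417 (67.8%) within 4-fold. These intervals are not adjusted for the number of genes, so their width is not a limit of detection. Larger fitted differences, such as -6.88 for OR12D2, did not pass the adjusted threshold either. With 6 heifers a group, an adjusted p above the threshold does not show that the groups were alike.

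**Figure D1:**
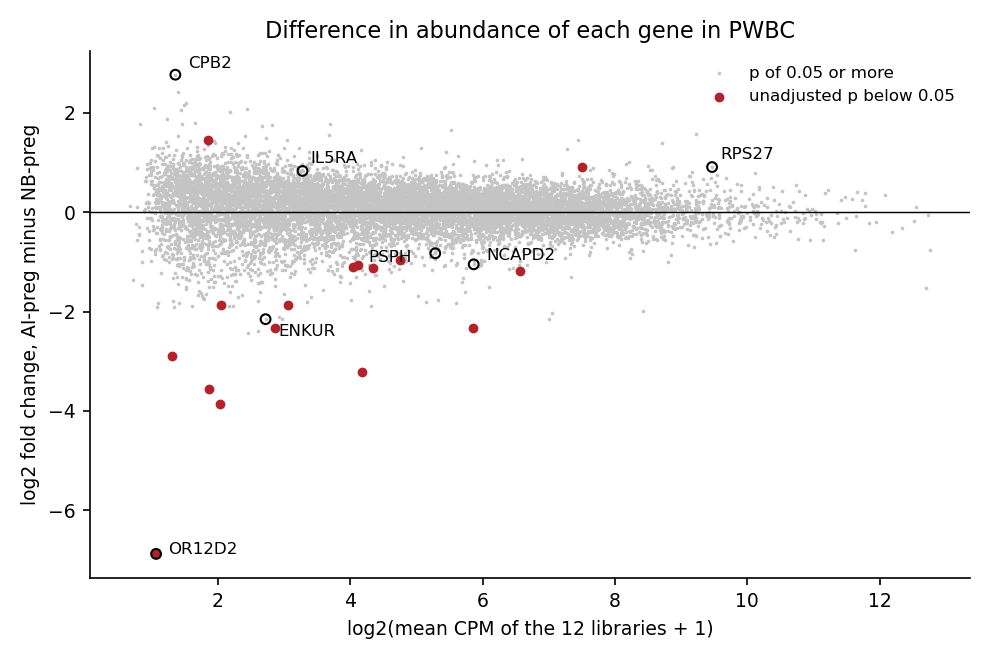
Log2 fold change of AI-preg minus NB-preg (y axis) against abundance as log2 of mean CPM plus 1 (x axis) for 10942 genes, 1 point a gene, with the 16 genes at an unadjusted p below 0.05 in red and 7 named genes circled. Of the red points 2 lie above 0 and 14 below, and OR12D2 lies lowest at a fitted value of -6.88.

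The rule that the study applied to these data, a nominal p no larger than 0.03 by DESeq2 and by edgeR's likelihood ratio test, held in every fit that omits 1 heifer, was met by 2 of 10942 genes (0.0183%). Both had the lower values in AI-preg, and their entry to the test depended on the group where they are high. Each reached 2 CPM in exactly 5 libraries, of which 3 were NB-preg, 2 non-pregnant and 0 AI-preg, so neither would have been tested without its 3 high NB-preg heifers. The first is OR12D2 (ENSBTAG00000040188), which encodes an olfactory receptor. It had 0 counts in 5 AI-preg heifers, which allows up to 0.0448 to 0.196 CPM in these libraries (3 counts each), and 3 counts in heifer 120. Among NB-preg heifers it had 309 counts in heifer 111 (6.58 CPM), 60 in heifer 108 (2.57 CPM) and 59 in heifer 121 (3.93 CPM), and 0 in heifers 93, 103 and 116. The groups therefore overlap at 0, and the difference rests on 3 NB-preg heifers. The summed counts, 3 against 428, give a ratio of NB-preg to AI-preg of 200.4 per unit of depth, with a 95% exact binomial interval of 68.1 to 976 that covers counting error only. Without heifer 111 the ratio was 79.1 and without heifer 93, which had 0 counts and a deep library, it was 312. Without heifer 120 AI-preg had 0 counts, and NB-preg was at least 165-fold higher, with 3 counts over the AI-preg group as the floor. It was between 140 and 214 when any other heifer was left out. These alternatives for the ratio were chosen after seeing the data. The edgeR quasi-likelihood test gave an unadjusted p of 0.00127, the smallest of all genes, and an adjusted p of 0.9996. In non-pregnant heifers OR12D2 ranged from 0 to 8.73 CPM, and 4 of 5 had more than 3 counts.

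The other gene, ENSBTAG00000049416, has no symbol in the sources used here. It was at 0 to 0.93 CPM in AI-preg, with a median of 0.35. In NB-preg it was at 0.30 to 6.41 CPM, with a median of 2.20. NB-preg heifers 103, 116 and 121 lay above every AI-preg heifer and the other 3 lay among them. The log2 fold change was -2.89 (SE 1.19, 95% interval -5.38 to -0.40, edgeR unadjusted p = 0.0253, adjusted p = 0.9996). Of the 3 NB-preg heifers high for this gene, only heifer 121 was also high for OR12D2. Heifers 103, 116 and 121 were also 3 of the 4 shallowest libraries of the 12, and the unadjusted p of ENSBTAG00000049416 was 0.262 with log2 library total as a covariate and 0.069 by limma-voom. Whether depth plays a part was not tested.

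Among genes with a symbol, the 10 with the smallest p for lower abundance in AI-preg are described 1 by 1 and form no tested group. None but OR12D2 had an unadjusted p below 0.05 in the edgeR quasi-likelihood test. DESeq2 put 8 of the other 9 below 0.05 before adjustment, all but ANKRD29, and limma-voom put 0 there. The unadjusted DESeq2 p-values of these genes ran from 0.0209 to 0.0531. By edgeR's likelihood ratio test ENKUR alone was below, at an unadjusted p of 0.0446. Phosphoserine phosphatase, PSPH, makes serine. It was at 20.6 to 40.2 CPM in AI-preg (median 23.3) and at 27.3 to 103 CPM in NB-preg (median 38.8). The groups overlapped, with NB-preg heifers 108 and 121 above every AI-preg heifer. Its log2 fold change was -0.83 (SE 0.43, unadjusted p = 0.0681), and -0.46 without heifer 121. GPAT3, which adds a fatty acid to glycerol phosphate in triglyceride synthesis, was at 2.41 to 16.9 CPM in AI-preg (median 7.32) and at 4.13 to 47.9 CPM in NB-preg (median 12.04). CHDH, the mitochondrial choline dehydrogenase, was at 0.13 to 7.58 CPM in AI-preg and at 1.53 to 13.4 CPM in NB-preg. For GPAT3 and CHDH the groups overlapped and 2 NB-preg heifers lay above every AI-preg heifer. Without heifer 116 the log2 fold change of GPAT3 moved from -1.16 to -0.56. The unadjusted p of CHDH was 0.111, and 0.346 with log2 library total as a covariate.

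NCAPD2, a subunit of the condensin complex that compacts mitotic chromosomes, was at 13.8 to 72.0 CPM in AI-preg (median 33.4) and at 16.5 to 148 CPM in NB-preg (median 64.7), with a log2 fold change of -1.05 (SE 0.55, unadjusted p = 0.069). HAUS4, a subunit of the augmin complex of the spindle, was at 12.3 to 48.3 CPM in AI-preg (median 22.6) and at 14.6 to 96.8 CPM in NB-preg (median 35.1). The highest NB-preg values of both came from heifers 108 and 121, and without heifer 108 the log2 fold change of HAUS4 moved from -0.86 to -0.52. RHBDF2, an inactive rhomboid protein needed for the release of tumor necrosis factor from cells, was at 2.82 to 46.6 CPM in AI-preg and at 2.57 to 236 CPM in NB-preg. TMEM129, a ubiquitin ligase of the endoplasmic reticulum, was at 0.12 to 9.16 CPM in AI-preg and at 1.41 to 52.7 CPM in NB-preg. In both of these genes heifer 108 was the highest and heifer 103 the next. Without heifer 108 the log2 fold changes moved from -1.76 to -0.51 for RHBDF2 and from -1.82 to -0.70 for TMEM129.

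Single heifers held most of the difference in the remaining genes of this side. ENKUR, which encodes enkurin, was at 50.4 CPM in NB-preg heifer 116 and at 0.27 to 2.19 CPM in the other NB-preg heifers, against 0.75 to 6.07 CPM in AI-preg. Its median was lower in NB-preg (0.86 CPM) than in AI-preg (1.28 CPM), opposite to the fitted log2 fold change of -2.15 (SE 1.17, unadjusted p = 0.0813), which becomes 1.14 without heifer 116. Heifer 116 had the shallowest library of the 12, and with log2 library total as a covariate the unadjusted p of ENKUR was 0.921. The high value and the lowest depth lie in the same heifer, so the covariate cannot separate them, and the cause was not tested. ANKRD29, an ankyrin repeat gene, was at 24.6 CPM in NB-preg heifer 103 and at 0.59 to 3.91 CPM in AI-preg, and its unadjusted p moved from 0.105 to 0.648 without heifer 103. It reached 2 CPM in 3 AI-preg, 3 NB-preg and 0 non-pregnant libraries, so it would not have been tested without the libraries of either pregnant group.

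The 10 genes with a symbol and the smallest p for higher abundance in AI-preg had unadjusted p-values from 0.0596 to 0.231, and all 10 overlapped between groups. IL5RA, the receptor subunit for interleukin 5 that marks eosinophils and basophils, was at 5.04 to 17.4 CPM in AI-preg (median 10.5) and at 3.73 to 13.96 CPM in NB-preg (median 4.67). All NB-preg heifers but heifer 103 were at 6.65 CPM or less. The log2 fold change was 0.83 (SE 0.49, 95% interval -0.19 to 1.85, unadjusted p = 0.106). The abundance of IL5RA in non-pregnant heifers was 12.9 to 36.8 CPM.

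Of the 10 genes, 3 encode mitochondrial proteins, which is a description and not a tested group. TIMM8B, a chaperone for proteins that enter the inner membrane, was at 2.86 to 13.3 CPM in AI-preg (median 8.93) and at 1.00 to 7.66 CPM in NB-preg (median 5.62), with 4 AI-preg heifers above every NB-preg heifer. IMMP2L, a peptidase of the inner membrane, was at 2.05 to 8.74 CPM in AI-preg (median 4.85) and at 0.31 to 4.30 CPM in NB-preg (median 2.45). C10H15orf48, named for the human gene of a small mitochondrial protein, was at 30.5 to 212 CPM in AI-preg (median 68.7) and at 15.7 to 87.6 CPM in NB-preg (median 53.1). The log2 fold changes of these 3 genes were between 0.80 and 0.91, with unadjusted p-values of 0.181, 0.155 and 0.153. Without AI-preg heifer 117 the log2 fold change of C10H15orf48 was 0.37.

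The list further held 2 ribosomal proteins. RPS27 was at 91.1 to 1728 CPM in AI-preg (median 771) and at 131 to 990 CPM in NB-preg (median 422). RPL36 was at 0.56 to 45.4 CPM in AI-preg and at 0.41 to 11.8 CPM in NB-preg, and its log2 fold change moved from 1.29 to 0.11 without heifer 114, the AI-preg maximum. PRPF38B, a splicing factor, was at 287 to 468 CPM in AI-preg (median 379) and at 194 to 360 CPM in NB-preg (median 304), with 4 AI-preg heifers above every NB-preg heifer. RADX, which binds single-stranded DNA at replication forks, had medians of 101 and 68.9 CPM, and its log2 fold change moved from 0.46 to 0.19 without heifer 120. CPB2, a carboxypeptidase that slows the lysis of clots, had the largest fitted difference of the 10, a log2 fold change of 2.77 (SE 1.38, unadjusted p = 0.0596). It rests on heifer 114, at 15.3 CPM, since the other 5 AI-preg heifers were at 0.04 to 0.31 CPM and NB-preg heifers at 0 to 1.56 CPM. Without heifer 114 the log2 fold change of CPB2 was -0.93, and without that heifer CPB2 would not have reached 2 CPM in 5 libraries. Its unadjusted p was 0.0245 by DESeq2 and 0.0307 by edgeR's likelihood ratio test.

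The 2 genes more abundant in AI-preg at an unadjusted p below 0.05 both lack a symbol and are named here for that reason, after their values were seen. ENSBTAG00000024578 was at 154 to 389 CPM in AI-preg (median 213) and at 77.7 to 156 CPM in NB-preg (median 126). Of the 6 AI-preg heifers 5 lay above every NB-preg heifer, and the ranges met only at 154 CPM in heifer 92 and 156 CPM in heifer 108. Its log2 fold change was 0.90 (SE 0.32, 95% interval 0.24 to 1.56, unadjusted p = 0.00974, adjusted p = 0.9996), and between 0.70 and 1.00 when any 1 heifer was left out. ENSBTAG00000038322 was at 1.97 to 5.28 CPM in AI-preg and at 0.58 to 3.51 CPM in NB-preg (log2 fold change 1.46, SE 0.66, unadjusted p = 0.0396), and 5 of the 9 libraries in which it reached 2 CPM were AI-preg, so that it would not have been tested without them. On the other side, ENSBTAG00000006963, also chosen after its values were seen, was at 0.40 to 6.03 CPM in AI-preg. In NB-preg it was at 153 CPM in heifer 108 and 22.9 CPM in heifer 121, and between 0.78 and 5.14 CPM in the other 4, and its log2 fold change moved from -3.22 to -1.01 without heifer 108.

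**Figure D2:**
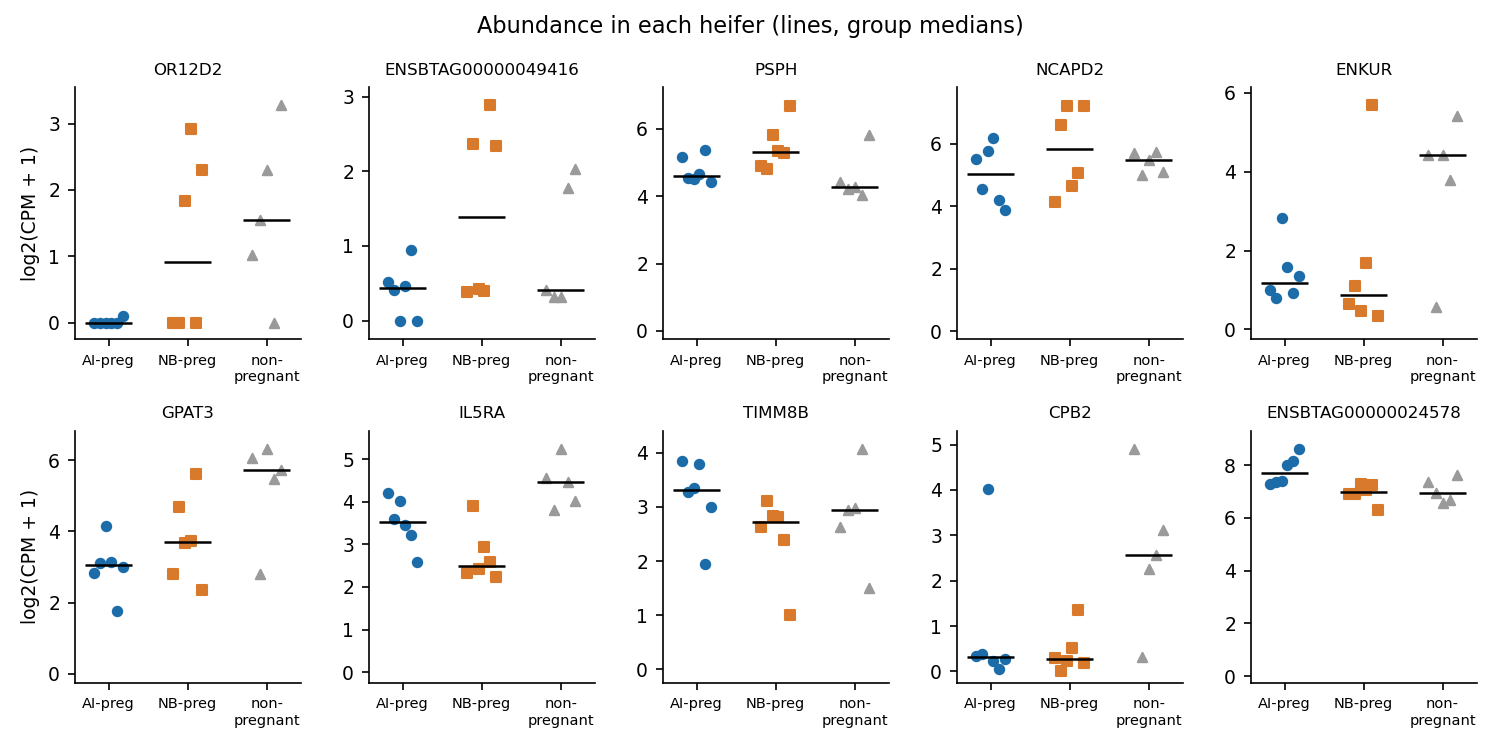
Abundance as log2(CPM + 1) in each heifer (points) with group medians (lines) for 10 genes, in AI-preg, NB-preg and non-pregnant PWBC. OR12D2 is at 0 in 5 AI-preg heifers and in 3 NB-preg heifers, ENKUR and CPB2 each have 1 pregnant heifer apart from the rest, and ENSBTAG00000024578 has 5 AI-preg heifers above every NB-preg heifer.

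Gene lists for blood cell types and for processes of white cells were then described by their members with a symbol, 179 genes over 26 lists. None of the 179 passed an adjusted p of 0.05 and none had an unadjusted p below 0.05, beside 0.146% of all genes, and the smallest was that of IL5RA. Monocyte, red cell and mitochondrially encoded lists had no member among the genes with a symbol and were not analysed here. S100A12, LCK and CD79A, defining genes of 3 white cell types, were detected in all 12 libraries. S100A12, a calcium-binding protein of neutrophils, was at 74.8 to 4090 CPM in AI-preg (median 975) and at 210 to 2790 CPM in NB-preg (median 851). The kinase LCK of T cells was at 7.04 to 247 CPM in AI-preg and at 37.1 to 216 CPM in NB-preg. CD79A of the B cell receptor was at 4.30 to 224 CPM in AI-preg and at 12.8 to 239 CPM in NB-preg. These ranges overlap throughout. All 3 genes were lowest of the 12 heifers in AI-preg heifer 119, so their ranges are not separate from each other. Among other lists, those of B cells, oxidative phosphorylation and ribosomal proteins were also lowest in heifer 119. The plasma cell list and the neutrophil granule and oxidase list were highest in it. The cause was not tested.

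The 5 neutrophil genes summed to 182 to 4350 CPM in AI-preg and 386 to 3010 CPM in NB-preg, a 24.0-fold and a 7.79-fold range, while the medians (1240 and 1090 CPM) differed 1.14-fold. S100A12 made nearly all of the highest sum in each group, at 4090 CPM in heifer 117 and 2790 CPM in heifer 103. FCGR3A, another member, spanned only 105 to 255 CPM in AI-preg and 47.5 to 167 CPM in NB-preg. The neutrophil granule and oxidase list ran opposite to this sum at the ends of AI-preg. Heifer 117 had 4350 CPM for the 5 genes and 195 CPM, the AI-preg minimum, for the granule list. Heifer 119 had 182 CPM and 1320 CPM, the AI-preg maximum. NB-preg heifer 121 did not show this opposition, at 737.5 and 175 CPM. Whether either sum follows neutrophil content was not tested. The 3 B cell genes summed to 47.9 to 919 CPM in AI-preg and 58.6 to 1110 CPM in NB-preg. The plasma cell genes JCHAIN and TNFRSF17 summed to 458 to 3330 CPM and 231 to 2750 CPM. JCHAIN, which joins antibody molecules into polymers, made nearly all of this sum. The list of eosinophil and basophil genes, IL5RA, HRH2 and GATA1, had the highest median log2 fold change of all lists, 0.78, beside 0.09 over all genes, and its sums were 7.65 to 25.2 CPM in AI-preg (median 12.7) and 4.80 to 18.6 CPM in NB-preg (median 6.20). Its 3 members were all fitted higher in AI-preg and none had an unadjusted p below 0.05. IL5RA, already named above for its small p, made most of these sums, with medians of 10.5 and 4.67 CPM. HRH2 had medians of 2.15 and 1.26 CPM. GATA1 was near the floor, with medians of 0.18 and 0.07 CPM and a log2 fold change of 0.13. The NK cell genes NKG7 and GZMB summed to 8.01 to 30.4 CPM and 14.7 to 42.1 CPM.

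The platelet genes TUBB1, a tubulin of platelets, and ITGA2B, a subunit of their fibrinogen receptor, showed the widest range of any list in NB-preg. TUBB1 was at 1860 CPM in NB-preg heifer 103 and 1780 CPM in heifer 93, but at 40.7 CPM in heifer 121 and 5.00 CPM in heifer 116. In AI-preg it was at 77.2 CPM in heifer 114 and at 481 to 1530 CPM in the other 5. The list summed to 90.4 to 1550 CPM in AI-preg and 8.13 to 1890 CPM in NB-preg, with medians of 833 and 381 CPM, a 2.19-fold difference within the range of either group. TUBB1 made most of the sum, as ITGA2B was only at 0.28 to 16.4 CPM in AI-preg and 1.07 to 29.3 CPM in NB-preg. ITGA2B did not follow TUBB1 in every heifer. In heifer 119 TUBB1 and the sum were both at 974 CPM, and in heifer 114 they were at 77.2 and 90.4 CPM. Whether the sum follows platelet content was not tested. The fitted log2 fold changes had opposite signs, 0.24 for TUBB1 and -0.21 for ITGA2B, neither with an unadjusted p below 0.05, and their median was 0.02.

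The interferon response genes did not separate the groups, but their sum set 1 heifer of each group apart. The 7 genes summed to 2190 CPM in AI-preg heifer 114 and 1820 CPM in NB-preg heifer 116, and to 96.3 to 384 CPM in the other 10 heifers. IFIT1, IFIT2 and IFIT3 made most of the sum in heifers 114 and 116. IFIT1, which binds viral RNA, was at 1010 CPM in heifer 114, at 873 CPM in heifer 116 and at 21.9 to 86.5 CPM elsewhere. IFIT3 was at 518 and 501 CPM in these heifers and at 13.7 to 62.2 CPM in the others. In 4 of the 7 genes these were the 2 highest of the 12 heifers. The medians of the remaining 5 heifers were 189 CPM in AI-preg and 176 CPM in NB-preg. IL1B, the inflammatory cytokine interleukin 1 beta, followed the same heifers, at 269 CPM in heifer 114 and 215 CPM in heifer 116 against 1.61 to 26.3 CPM in the other 10. CXCR2, the neutrophil receptor for interleukin 8, was at 29.0 and 85.9 CPM there against 0.04 to 4.75 CPM. The other neutrophil genes did not all follow, as S100A12 was at 1880 CPM in heifer 114 and 823 CPM in heifer 116, within the range of the other heifers. In non-pregnant heifers the interferon list summed to 233 to 4840 CPM, above 1000 CPM in 3 of 5.

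**Figure D3:**
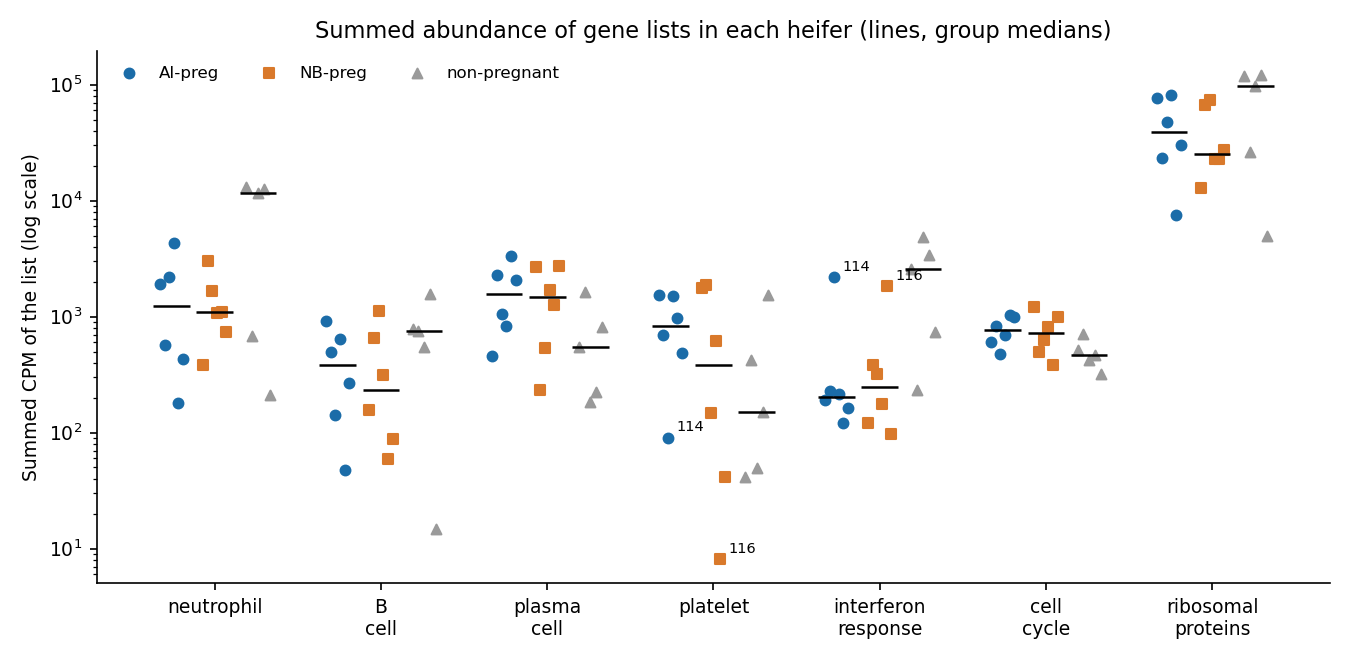
Summed CPM (log axis) of 7 gene lists in each AI-preg, NB-preg and non-pregnant heifer (points) with group medians (lines), with heifers 114 and 116 numbered in the platelet and interferon lists. The interferon list is at 2190 CPM in heifer 114 and 1820 CPM in heifer 116 against 96.3 to 384 CPM in the other 10 pregnant heifers.

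The ribosomal proteins, which build the ribosome and are among the most abundant mRNAs of white cells, summed to 7560 to 81300 CPM in AI-preg (median 39100) and 12800 to 74400 CPM in NB-preg (median 25000). Of 61 members 53 were fitted higher in AI-preg and 8 lower, beside 6486 of 10942 genes fitted higher, and the median log2 fold change was 0.32. None had an unadjusted p below 0.05. The members were counted in the same 12 libraries and are not 61 separate observations, and since reads with several alignments were removed, those with near-identical copies in the genome have uncertain levels. Without heifers 114, 116 and 121 the median was 0.03. RPS3A, the most abundant member, had a fitted value of the opposite sign, -0.18, at 1210 to 9090 CPM in AI-preg and 1650 to 12100 CPM in NB-preg. Heifers 92 and 117 had the highest ribosomal sums of the AI-preg group and heifer 119 the lowest.

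The lists on immune signalling and metabolism had median log2 fold changes between -0.65 and 0.46. The immunoproteasome and antigen presentation list (10 members, median 0.13) spanned 261 to 3750 CPM in AI-preg and 603 to 4870 CPM in NB-preg. Its member PSMB9, a catalytic subunit of the immunoproteasome, was at 0.93 to 42.0 CPM and at 2.35 to 178 CPM. The TNF and NF-kB list (9 members, median -0.10) included the adaptor MYD88, at 29.4 to 317 CPM and 54.8 to 344 CPM. Cytokines and chemokines (6 members) had a median of -0.06, chemokine receptors and integrins (4 members) -0.30 and immediate early genes (6 members) -0.13. The cytotoxic list (5 members, median 0.46) held NKG2A, an inhibitory receptor of NK cells, at 10.7 to 46.7 CPM in AI-preg (median 25.2) and 5.52 to 38.1 CPM in NB-preg (median 12.7).

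The glucocorticoid receptor NR3C1 was at 161 to 516 CPM in AI-preg (median 324) and 163 to 490 CPM in NB-preg (median 292), and FKBP5, a chaperone that cortisol induces, at 124 to 488 CPM and 99.8 to 614 CPM. The steroid and prostaglandin list had the lowest median, -0.65, from 3 members, none with an unadjusted p below 0.05. These were PTGES3, a cochaperone of steroid receptors also known as a prostaglandin E synthase, ALOX5AP, which presents arachidonic acid to lipoxygenase, and PTGS2, an inducible cyclooxygenase. PTGES3 was at 517 to 2090 CPM in AI-preg (median 812) and 923 to 2340 CPM in NB-preg (median 1080). PTGS2 was at 1.30 to 6.32 CPM and at 0 to 10.1 CPM.

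The glycolysis and hypoxia list (11 members, median -0.19) had 3 members fitted higher and 8 lower. PGK1, a kinase of glycolysis, was at 206 to 443 CPM in AI-preg (median 316) and 275 to 1000 CPM in NB-preg (median 351), with heifer 121 the highest. The oxidative phosphorylation list (16 members) had a median of -0.01, with 8 members fitted higher and 8 lower, and the cell cycle list (6 members) a median of -0.05. TOP2A, the topoisomerase of dividing cells, was at 24.7 to 372 CPM in AI-preg (median 137) and 13.6 to 459 CPM in NB-preg (median 31.4). It was above 200 CPM in AI-preg heifers 99, 119 and 120 and in NB-preg heifers 93 and 111, and at 38.7 CPM or less in the other 7. High and low values of TOP2A thus occurred in both groups. MKI67, another marker of dividing cells, was at 15.5 to 228 CPM in AI-preg (median 48.1) and 6.00 to 179 CPM in NB-preg (median 16.1). The fitted log2 fold changes of TOP2A and MKI67 were 0.33 and 0.58, opposite in sign to those of NCAPD2 and HAUS4 (edgeR unadjusted p = 0.71 and 0.573). They were the 2 members of the cell cycle list fitted higher in AI-preg. The other 4, PCNA, MCM7, CDK2 and FEN1, were fitted lower, at -0.12, -0.20, -0.04 and -0.07 (edgeR unadjusted p from 0.727 to 0.945). These values are too small beside their spread to give a direction. Heifers 108 and 121, the highest for NCAPD2 and HAUS4, were at 13.6 and 25.9 CPM for TOP2A and at 19.9 and 6.00 CPM for MKI67. The median log2 fold change, 0.09 over all genes, was -0.16 for heat shock proteins (2 members), -0.09 for the integrated stress response (6 members), -0.22 for retinoid signalling (3 members), -0.22 for neutrophil granule genes (6 members) and 0.10 for glucocorticoid response genes (2 members).

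Whole libraries likewise did not sort by group. In a principal component analysis of log2(CPM + 1) over the 10942 genes, component 1 held 40.7% of the variance and component 2 held 31.5%. The AI-preg mean on component 1 was -3.12 ± 65.5 (SD, n = 6), against a NB-preg mean of 3.12 ± 65.1 (SD, n = 6, two-sided exact permutation test, p = 0.864). On component 2 the means were 15.6 ± 46.9 and -15.6 ± 62.0 (SD, n = 6 each, exact p = 0.346). Heifers of both groups stood at each end of component 1. AI-preg 119 and NB-preg 93 scored -100.8 and -67.0, and AI-preg 92 and 117 and NB-preg 103 and 108 scored from 63.2 to 95.5. The gene with a symbol weighted most on the positive side was RPLP2, a protein of the ribosomal stalk, followed by genes such as UQCR11 of the respiratory chain and PSMB9, and on the negative side TOP2A, the chemokine receptor CCR4 and the kinetochore gene KNL1. Component 2 was weighted on the positive side by the platelet genes TUBB1 and MPIG6B. On the negative side P2RY12, the receptor for ADP that platelets also carry, had the largest weight among genes with a symbol, and IL1B and CXCR2 were among the 10 largest.

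Heifers 121, 116 and 114 had the lowest scores on component 2, at -105.2, -75.8 and -52.9, and formed a branch of their own in average-linkage clustering. Their libraries, with 15019274, 6402207 and 15353819 counts, and that of heifer 103, with 10341061 counts, were the 4 shallowest of the 12. Over the 12 heifers, component 2 followed log2 depth (Pearson's r = 0.751, permutation p = 0.00513, adjusted p = 0.0103; Spearman's rho = 0.741, permutation p = 0.00743, adjusted p = 0.0149; 2 relations computed). Leaving out heifers 99 and 116, whose depths lie farthest from the median, gave r = 0.608. Within groups r was 0.766 in AI-preg (n = 6, exact permutation p = 0.0806) and 0.707 in NB-preg (n = 6, exact permutation p = 0.131), so the relation passed 0.05 in neither group alone. Component 1 had no such relation (r = -0.142, permutation p = 0.658, rho = -0.245, permutation p = 0.442, r = -0.354 without the same heifers). With log2 library total as a covariate in the edgeR fit, 5 genes had an unadjusted p below 0.05, of which 3 were among the 16 without it.

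**Figure D4:**
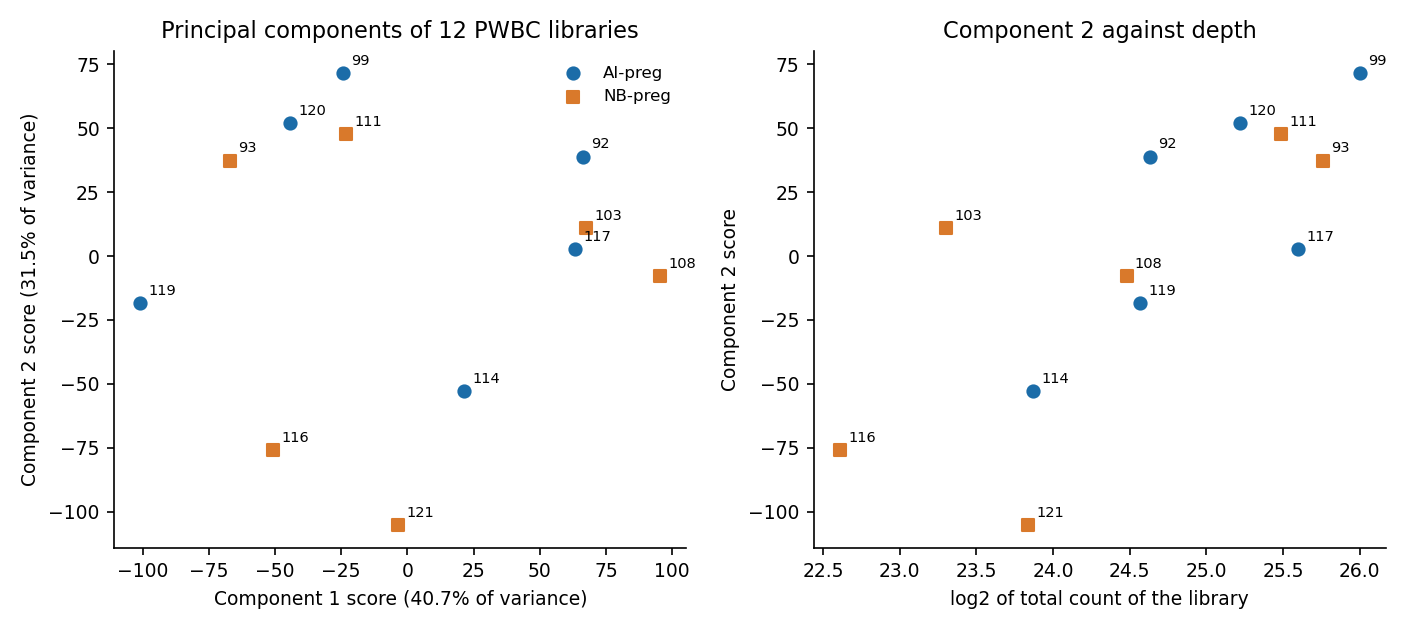
Left, scores of the 12 heifers on principal components 1 and 2 of log2(CPM + 1), by group and numbered by heifer. Right, the component 2 score against log2 of the total count. Both groups spread over component 1, and heifers 114, 116 and 121 lie lowest on component 2.

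By Pearson's r over genes, 4 of the 12 heifers had their nearest library in their own group. The closest pair was AI-preg 120 and NB-preg 93, at r = 0.972, and no pair of libraries was identical. The median r was 0.871 over the 15 pairs within AI-preg, 0.863 over the 15 pairs within NB-preg and 0.873 over the 36 pairs between groups.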

How the data were processed

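PWBC mRNA (poly-A selected, stranded library) was measured in 17 heifers. Reads were aligned by the authors with HISAT2 2.1.0 (assembly ARS-UCD1.2). They dropped multi-mapped, poorly matching and duplicate reads and counted read pairs by strand on exons with featureCounts (1.6.0 in the submitters' processing notes), and the deposited values are these counts per gene, neither normalized nor filtered. Here, genes with 2 CPM or more in 5 or more libraries were tested with edgeR 4.0.16 (robust quasi-likelihood, 3 groups in 1 fit, library totals over the genes kept) in R 4.3.3, with Benjamini-Hochberg adjustment. Named genes are those past an adjusted p of 0.05 (none), those meeting the study's rule, the 10 smallest p with a symbol in each direction, and members of the lists by abundance and p. Of these, 1 of the 10 with higher abundance in AI-preg is not reported here. Identifiers without a symbol were named after their values were seen. The members and lists were chosen with earlier results of these data known. Symbols come from the study's supplementary tables, and 12 symbols on 2 identifiers each, RPL39 among them, were not used. An annotation carrying the identifiers was not used here, so positions and sequences are not given, and protein-coding genes could not be selected. Principal components, exact permutation tests over 924 splits and correlations (100000 permutations) were computed in Python 3.11.15 (scipy 1.17.1) with log2(CPM + 1). The p-values measure the spread between heifers, 1 library each, and counting intervals cover counting error only. The tests were tested on simulated data. Alternatives covered scaling (TMM, DESeq2 1.42.0), the test (limma 3.58.1), filters, covariates and each heifer left out. Plasma small RNA was not used here.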

Additional observations from a re-analysis of the deposited data

Results flagged for a closer look

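Among 108 sets of 6 heifers examined (2 groups by depth, components, named genes and lists), 7 had 1 heifer far from the other 5 by Dixon's criterion at 95%. Chance gives about 1 in 20 for sets not chosen by their values. Many of the named genes were chosen for a small p or after their values were seen, so that rate does not apply to them. In AI-preg, CPB2 was highest in heifer 114, at 4.02 on the log2(CPM + 1) scale, and so was the interferon response list, at 11.1 on the log2 scale of summed CPM. RPS27 was lowest in AI-preg heifer 119, at 6.52, and OR12D2 was highest in AI-preg heifer 120, at 0.107, which stands for 3 counts beside 0. With the other 5 heifers at 0, any count in heifer 120 would have been flagged, so the OR12D2 flag carries no information. In NB-preg, heifer 116 was highest for ENKUR (5.68) and for ENSBTAG00000027126 (4.87), and heifer 121 was lowest for TIMM8B (1.00). Heifers 114, 116 and 121 account for 5 of these 7 values, but the genes among them were chosen in the ways just named. CPB2 would not have been tested without the AI-preg libraries, nor ENSBTAG00000027126 without the NB-preg libraries. The depths of these 3 heifers are among the 4 lowest of the 12, and whether depth plays a part was not tested. With log2 library total as a covariate, the unadjusted edgeR p of ENKUR between the groups moved from 0.0813 to 0.921. Heifer 116 had both the highest ENKUR value and the lowest depth, so the covariate cannot separate them. Without heifer 116 the log2 fold change of ENKUR moved from -2.15 to 1.14.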

How the results depend on the processing

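No gene passed an adjusted p of 0.05 in the main analysis or in any of 23 alternatives, and the smallest adjusted p in any was 0.332 (DESeq2). The number at an unadjusted p below 0.05, 16 in the main analysis, was 27 with TMM factors, 71 with DESeq2, 30 with the likelihood ratio test, 19 with limma-voom (13 higher and 6 lower in AI-preg, against 2 and 14), 720 of 19661 with no filter on low counts, 28 with filterByExpr, 63 with a neutrophil score as covariate, 128 (20 higher, 108 lower) with the first component as covariate and 5 with log2 library total as covariate. It was between 7 (without heifer 120) and 132 (without heifer 114, 6 higher and 126 lower) when 1 heifer was left out, and 29 without heifers 114, 116 and 121, an alternative chosen after seeing the data. The study's rule gave 14 genes without its leave-one-out part and 28 with filterByExpr and without that part, beside 2. The difference in component 1 changed sign with components from all 17 libraries (2.02) and was between -27.7 and 28.3 when 1 heifer was left out, with no p below 0.05. Depth and component 2 kept their direction throughout, and component 2, at 31.1 in the main analysis, was between 15.6 and 46.1 when 1 heifer was left out and 2.655 (exact permutation p = 0.905) without heifers 114, 116 and 121. CPB2 reversed to -0.93 without heifer 114 (3.68 without heifer 116), and to -0.12 without heifers 114, 116 and 121. Without these 3, PSPH moved from -0.83 to -0.40, IL5RA from 0.83 to 0.52, TIMM8B from 0.84 to 0.52 and ENSBTAG00000049416 from -2.89 to -1.61. RPL36 reversed to -0.18 and ENKUR to 0.20 without these 3, and ENKUR to 1.14 without heifer 116 alone (-2.86 without heifer 114). The log2 fold change of PRPF38B, 0.39, was 0.25 with TMM factors and 0.23 with DESeq2, and that of ANKRD29, -1.67, was -0.44 without heifer 103. The cause of these changes was not tested. Over 26 lists, 18 medians changed sign in at least 1 alternative. No paired analysis was possible because the groups share no heifer number.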
